A study of Rattus norvegicus with 36 samples.

Results

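The 10 genes described here encode surface molecules and transcription factors that mark T cells and their activation: Cd3e, Cd4, Cd8a, Cd28, Icos, Ctla4, Foxp3, Il2ra, Pdcd1 and Batf. They were taken from the array by name, as every probe that is not a control and carries one of these symbols. This gave 17 of the 45598 probes and 10 of the 25597 gene names of the array. The RNA came from the accessory lobe of the lung of female Sprague Dawley rats, aged 13 weeks when they were instilled through the trachea. The exposed rats received 10 mg of DQ-12, a crystalline silica dust, in sterile saline, and the vehicle rats received saline alone. Each of the 6 groups (vehicle and DQ-12 at 1, 30 and 180 days, written D1, D30 and D180) had 6 rats, and each rat had its own single-color Agilent array. The question was which of these T cell genes differed between DQ-12 and vehicle rats at each time point. A whole lobe is a mixture of cells, so that fewer or more T cells and less or more RNA per T cell cannot be told apart.

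T cells recognize antigen through the T cell receptor, which signals through the CD3 chains, while CD4 and CD8 bind the antigen-presenting molecules. CD28 and ICOS are costimulatory receptors, and CTLA4 and PD-1, the product of Pdcd1, restrain activation. IL2RA is the inducible chain of the receptor for interleukin-2, FOXP3 is the factor that defines regulatory T cells, and BATF is an AP-1 family factor that acts with IRF4 in activated lymphocytes. Several of these genes are not private to T cells: rat macrophages carry CD4, rat NK cells can carry CD8, and BATF is also made in B cells and myeloid cells.

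On each array, 51.4 to 75.5% of the probes were well above background by the flag of the image analysis, which limits what can be read from dim genes such as Ctla4. The arrays came from 19 slides and 11 scan dates. At D1 the 6 DQ-12 arrays shared their scan date with 1 vehicle array only, so that the D1 values rest heavily on that array once scan date is held fixed. In 3 rats (1 DQ-12 rat at D1, 1 DQ-12 rat at D30 and 1 vehicle rat at D180) the mean level of 10 skeletal and heart muscle genes was over 1 log2 unit above the median of all arrays. Their part in the results was not tested, but the counts of DEGs and of differences between time points were also made without them.

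The array reads each gene through probes of 60 bases. The probes of the genes that rose are shown because the result of a gene is the result of its probe. The brightest probe represented the gene. Positions are those in the array file, on the rat build rn4, where the Icos probes have none. The exons of that build were not used here. For Batf the probe lay at chr6:109817446-109817505, and for Il2ra at chr17:78049006-78049065. The first 30 bases of the probes of Batf, Icos and Il2ra, 5′ to 3′ as the array file lists them, were:
Batf: agtcaatgtactgaactctcccggggaaat
Icos, brightest probe: ttgttttcatctcttgactaagctcctgtc
Icos, second probe: acagaagctcttatgtttctgagatgttga
Il2ra, brightest probe: gaagctacatgcatgatatcatcagtctgg
Il2ra, second probe: taaaactctgggctgacaatgaggactcca

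Icos, Batf and Il2ra were higher in DQ-12 rats at D30 and D180, Foxp3 was higher at D180, and Pdcd1 was lower at D1, whereas Cd3e, Cd8a, Cd28 and Ctla4 did not pass the test at any time point. "Rose" and "fell" are used below for an adjusted p under 0.05 (limma, Benjamini–Hochberg over the 23721 genes tested), and differentially expressed genes (DEGs) also differed 2-fold or more in either direction (FC, fold change). All 10 genes passed the filter on dim probes. At D1, 1 of the 10 genes was a DEG, where 3.12% of all genes tested were. At D30 the count was 2 of 10 against 1.06% of all genes, and at D180 it was 4 of 10 against 3.67%. On the adjusted p alone, 3, 3 and 5 of the 10 genes passed at D1, D30 and D180, against 16.5, 4.06 and 17.1% of all genes. The 2 groups of 6 rats did not overlap, with DQ-12 higher, for 1 gene at D1, 3 genes at D30 and 4 genes at D180. Such separation was found for 5.28, 1.83 and 3.89% of all genes. For Foxp3 at D180 it rested on a DQ-12 rat that was not well above background. As a group, the 10 genes had median log2 FCs of 0.15 at D1, 0.15 at D30 and 0.54 at D180, beside -0.01, -0.02 and -0.03 over all genes. The D180 median was set by Ctla4 and Pdcd1, so that it does not show a rise of the whole group. Ctla4 was well above background on 0 arrays of that day, and Pdcd1 did not pass (limma, adjusted p = 0.265).

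**Figure D1:**
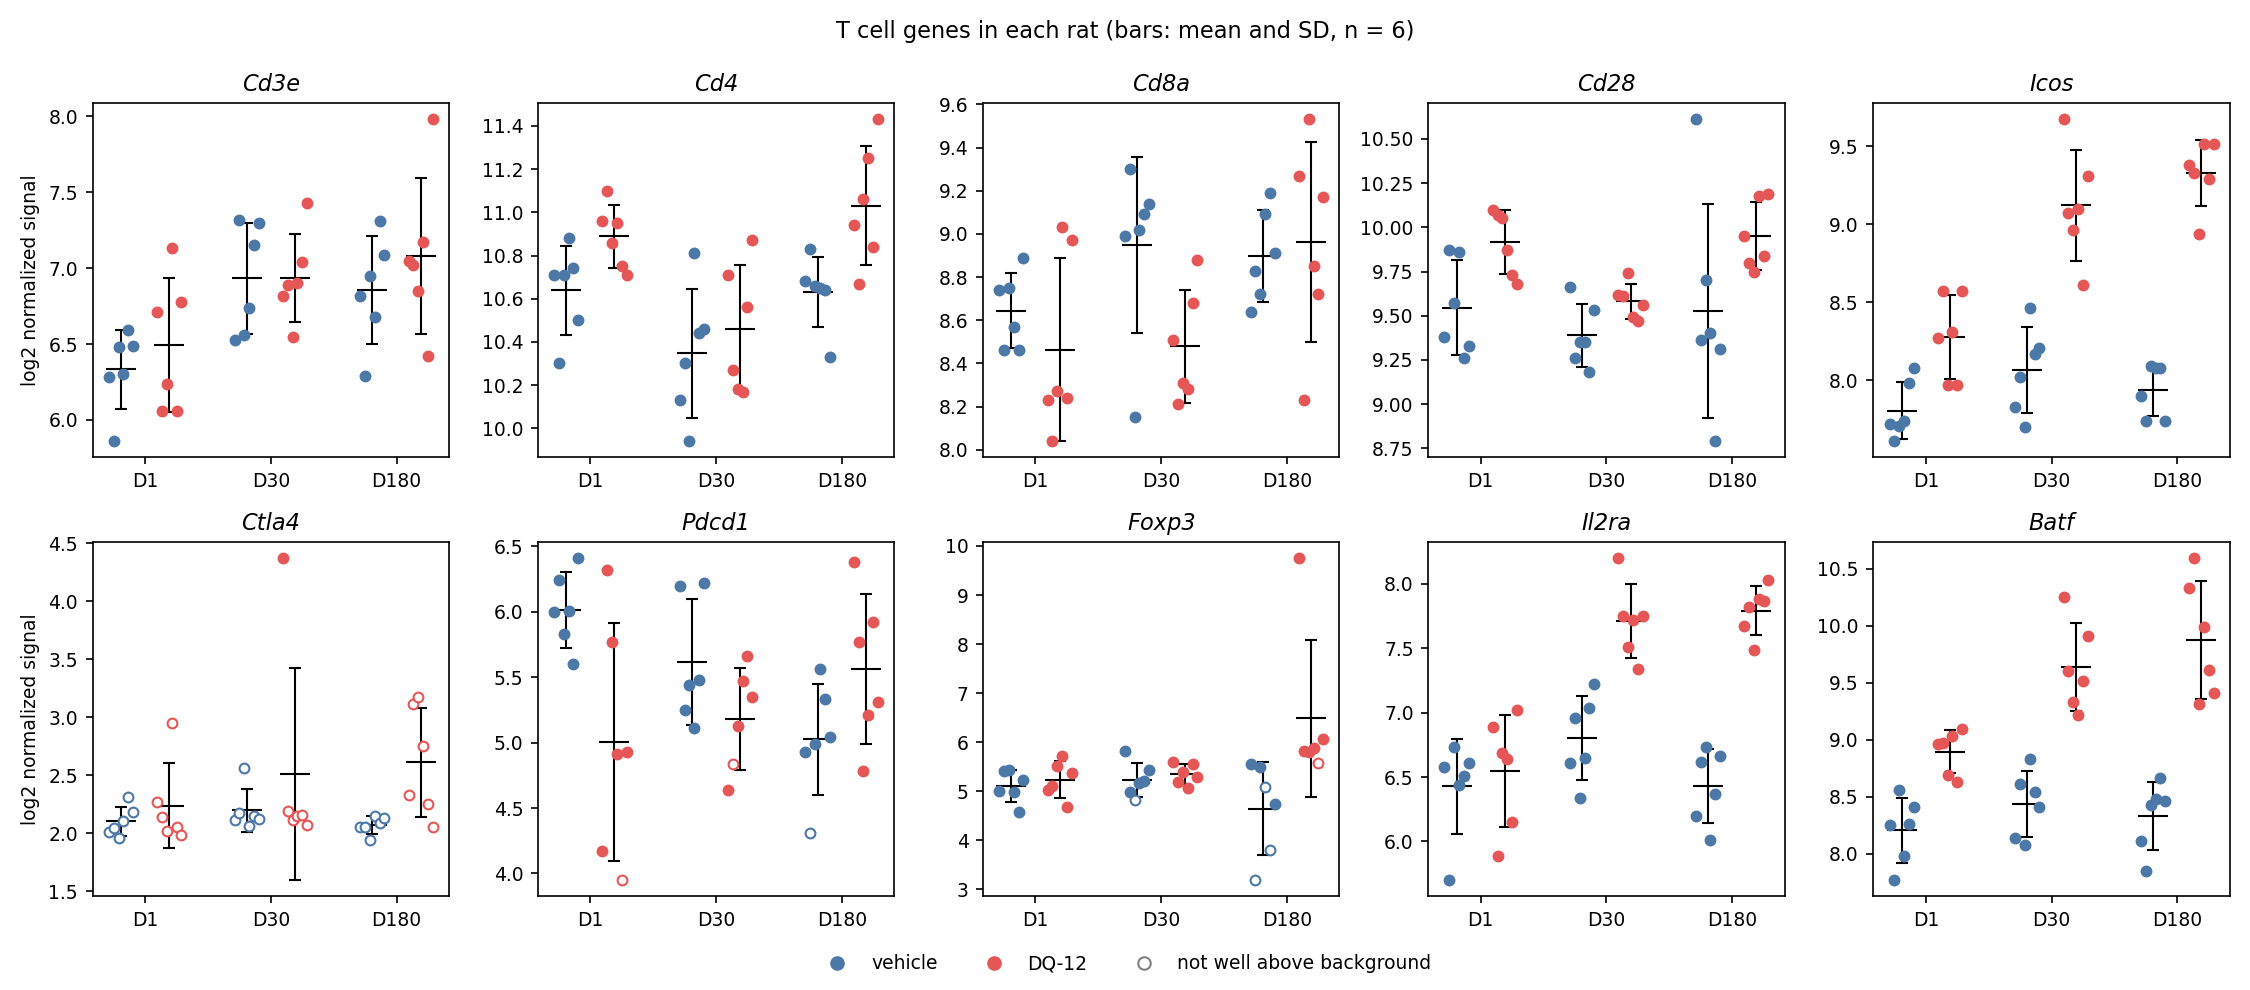
Log2 normalized signal of the 10 genes (1 panel each, each with its own vertical axis) in every rat at D1, D30 and D180; points are rats, bars are the mean and SD of 6 rats, and open points are arrays where the probe was not well above background. Icos, Il2ra and Batf separate the groups at D30 and D180, while the Foxp3 mean at D180 is raised by 1 rat at 9.75.

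The receptor chain and the coreceptors moved little. Cd3e, a signalling chain of the T cell receptor, differed by a log2 FC of 0.17 at D1 (95% interval -0.27 to 0.61), 0.01 at D30 (-0.44 to 0.45) and 0.22 at D180 (-0.22 to 0.66). Its log2 signal at D180 ran from 6.29 to 7.31 (median 6.88) in vehicle rats and from 6.42 to 7.98 (median 7.04) in DQ-12 rats, so that the groups overlapped. Cd8a, the coreceptor of cytotoxic T cells, had log2 FCs of -0.18, -0.47 and 0.06. Its lowest adjusted p was 0.2, at D30, where vehicle rats ran from 8.15 to 9.3 (median 9.05) and DQ-12 rats from 8.21 to 8.88 (median 8.41). Cd4, the coreceptor of helper T cells, rose at D180 only slightly (log2 FC 0.4, SE 0.14, FC 1.32, adjusted p = 0.0475, limma). There, 5 of the 6 DQ-12 rats lay above every vehicle rat. This adjusted p was close to the threshold: it was above 0.05 in 9 of the 12 fits without 1 rat (up to 0.134), without the rats with raised muscle genes (0.0623), with D180 fitted alone (0.095), and with slide (log2 FC 0.29, 0.749) or scan date (log2 FC 0.17, 0.598) as a block. A second Cd4 probe gave 0.49 at D180 (SE 0.21, adjusted p over all kept probes 0.13), and neither probe passed the test at D1 or D30.

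The intervals bound these differences: for Cd3e they exclude a 2-fold change in either direction at all 3 time points, and for Cd8a and Cd4 as well. The Cd3e probe, at chr8:47950313-47950372, is shown whole because the other genes are set against it below:
Cd3e: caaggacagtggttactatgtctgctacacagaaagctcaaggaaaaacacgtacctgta

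Other genes of the T cell receptor complex gave 0 DEGs, though a few passed on the adjusted p. Of 25 tested genes of the receptor complex and its proximal signalling, 0 were DEGs at D1, D30 or D180 (limma). Of all genes, 3.12, 1.06 and 3.67% were DEGs, so that 0 of 25 is near those shares. An unadjusted p under 0.05 was reached by 7, 0 and 5 of the 25. On the adjusted p alone, 2 fell at D1, 0 passed at D30 and 2 rose at D180, beside 16.5, 4.06 and 17.1% of all genes. The median log2 FC of the 25 was -0.18, 0 and 0.16. Cd3d, Cd3g and Cd247, the other CD3 chains, differed at D180 by 0.16, 0.04 and -0.06 with SEs of 0.18, 0.2 and 0.13. Cd247 fell at D1 (log2 FC -0.37, FC 0.772, adjusted p = 0.0464), the only CD3 chain to pass the test at any time. Cd8b, the partner of CD8A, had log2 FCs of -0.03, -0.21 and 0.31 and passed at no time. Of 16 T cell markers, 0 were DEGs at each time point (limma; 3, 0 and 3 with an unadjusted p under 0.05), a count also near the shares of all genes.

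**Figure D2:**
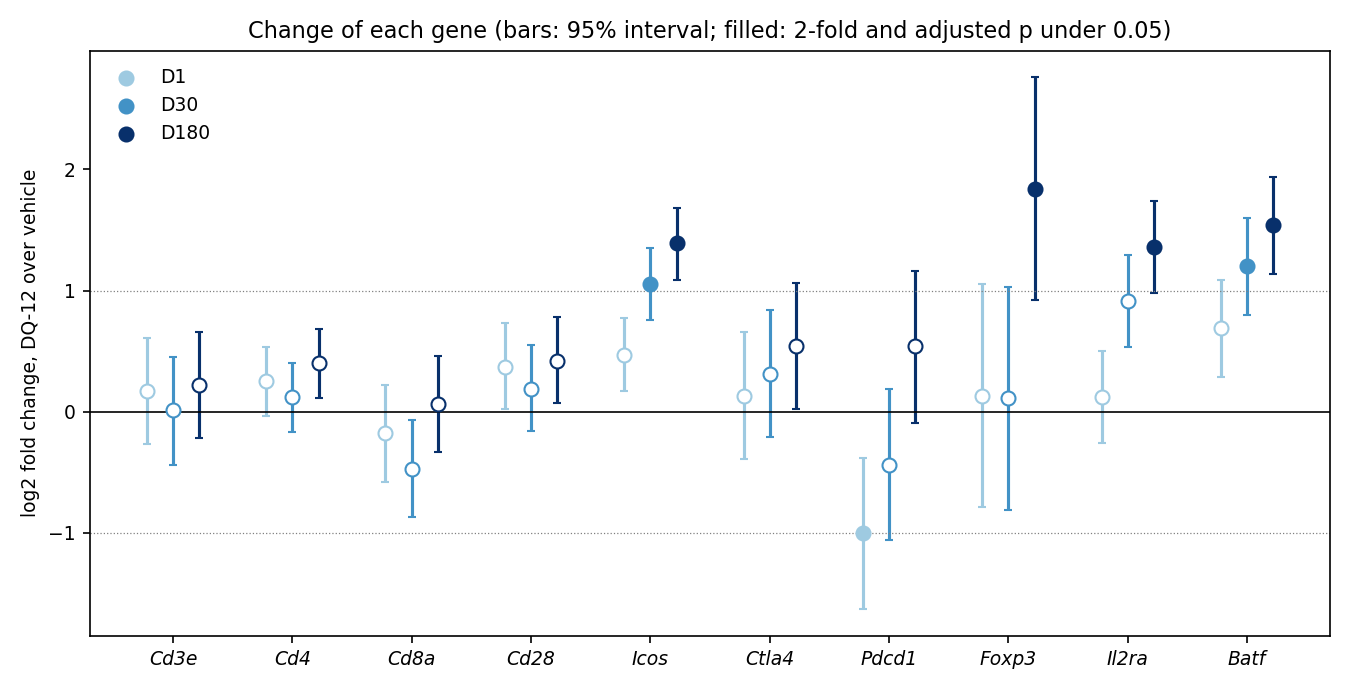
Log2 FC of DQ-12 over vehicle rats for each of the 10 genes at D1, D30 and D180, with 95% intervals from the limma model; filled points are DEGs and the dotted lines mark a 2-fold change. Icos, Il2ra and Batf have larger values at D180 than at D1, while the values of Cd3e, Cd4, Cd8a and Cd28 stay within the 2-fold lines.

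Icos, the inducible costimulator that T cells display after activation, rose at each time point and was a DEG at D30 and D180. At D1 its log2 signal ran from 7.61 to 8.08 (median 7.73) in vehicle rats and in DQ-12 rats from 7.97 to 8.57 (median 8.29), so that the groups overlapped (log2 FC 0.47, SE 0.15, adjusted p = 0.0241). At D30 it ran from 7.7 to 8.46 (median 8.09) and from 8.61 to 9.67 (median 9.09), respectively. At D180 it ran from 7.74 to 8.09 (median 7.99) and from 8.94 to 9.51 (median 9.36). Every DQ-12 rat lay above every vehicle rat at both later time points. The log2 FC was 1.05 at D30 (SE 0.15, FC 2.08, adjusted p = 1.46e-05) and 1.39 at D180 (SE 0.15, FC 2.62, adjusted p = 1.8e-08; exact permutation test over 462 splits, 2-sided p = 0.00216, the smallest it can give). The FC at D30 lay so near 2 that it was 1.93 without DQ-12 rat 1 and 1.97 without vehicle rat 3, with adjusted p of 7.64e-05 and 7.81e-05.

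Its other probes moved the same way. The second Icos probe had a log2 FC of 0.32 at D1, 0.98 at D30 (SE 0.25, adjusted p = 0.0224) and 1.4 at D180 (SE 0.25, adjusted p = 0.000101). These p were adjusted over all kept probes, of which 2.83, 0.802 and 3.23% passed the DEG thresholds at D1, D30 and D180. Probe 3 was well above background on 0 vehicle arrays at D30, where it was at least 1.31-fold higher in DQ-12 rats (adjusted p = 0.0134), and at D180 it was well above background on 1 vehicle and 5 DQ-12 arrays with a log2 FC of 1.74 (SE 0.37, adjusted p = 0.000967). Within the scan dates that held both groups, the Icos difference was 0.57 at D1, 0.55 and 1.14 at D30, and 1.2 and 1.54 at D180. The rise at D1 no longer passed with slide (adjusted p = 0.388) or scan date (adjusted p = 0.408) as a block. Probe 3 is shown whole, as a further stretch of Icos that gave a higher signal:
Icos, probe 3: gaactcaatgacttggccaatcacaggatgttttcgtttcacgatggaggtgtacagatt

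**Figure D3:**
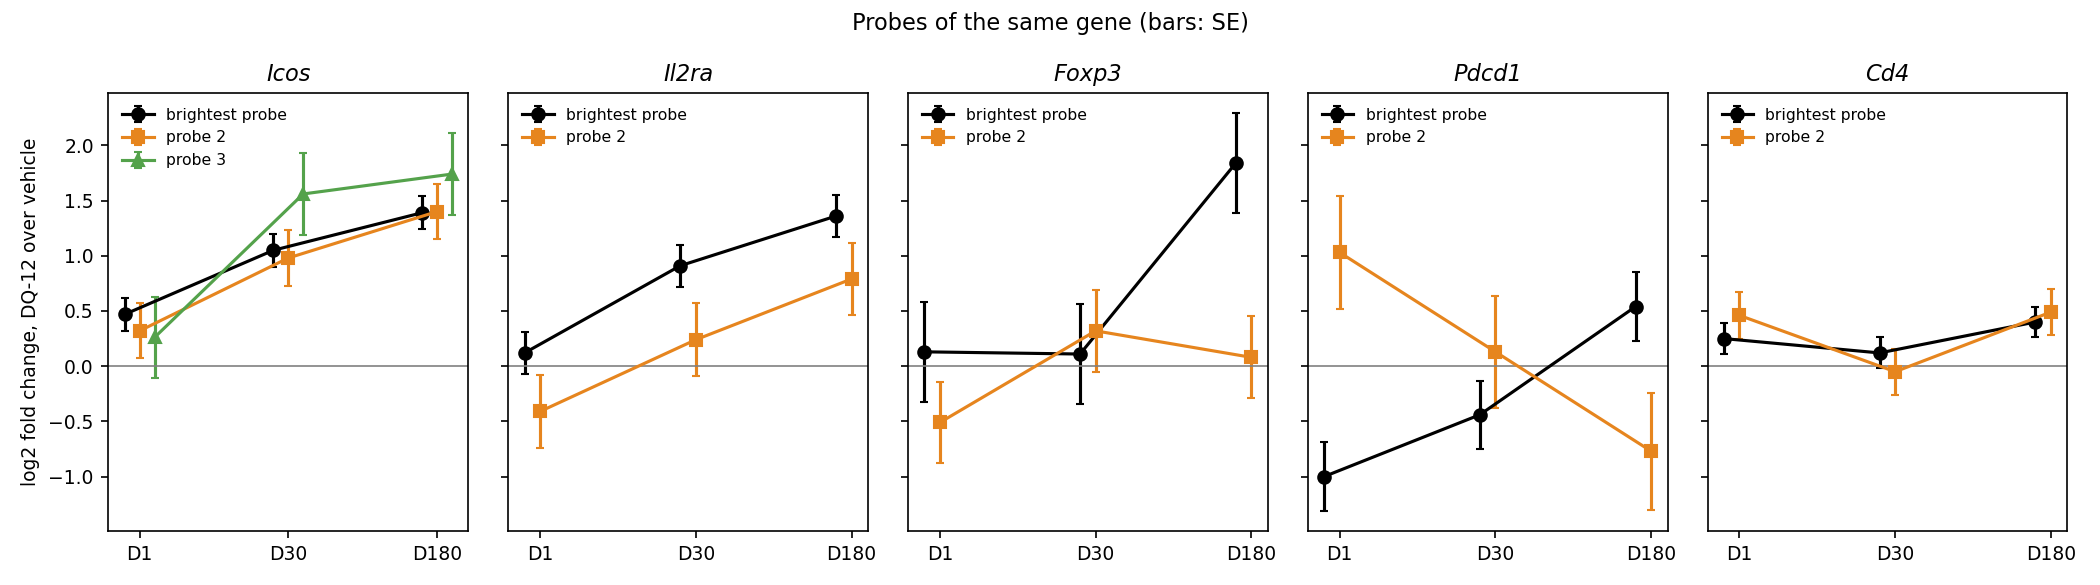
Log2 FC of DQ-12 over vehicle rats at D1, D30 and D180 for each probe of the 5 genes with more than 1 tested probe; bars are SEs and probe 1 is the brightest probe. The 3 Icos probes rise together, whereas those of Foxp3 and Pdcd1 part at D180 and D1.

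Cd28, the costimulatory receptor of resting T cells, and Ctla4, its inhibitory relative, did not pass the test at any time point, and both had a limit in their probes. The Cd28 probe at chr9:59369623-59369682 had log2 FCs of 0.37, 0.19 and 0.42 (SE 0.17 each, adjusted p 0.148, 0.688 and 0.0972). It ends in a run of CT repeats. When the group means were taken out and all genes were ranked by their correlation with it over 36 arrays, the 3 genes most like it were Prlhr (r = 0.97), LOC103694867 (0.95) and LOC102548262 (0.92), and the probes of all 3 end in such a run. Only 11 of the 45598 probes hold a run of at least 8 CT units, and the highest correlation of a gene without one was 0.88. The last 30 bases of these probes, with the run in capitals, were:
Cd28: gggttcCTCTCTCTCTCTCTCTCTCTCTCT
Prlhr: tctttcctTCTCTCTCTCTCTCTCTCTCTC
LOC103694867: gttTCTCTCTCTCTCTCTCTCTCTCTCTCT
LOC102548262: ctaggcattTCTCTCTCTCTCTCTCTCTCT

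The second Cd28 probe, at chr9:59367672-59367731, has no such run. It exceeded the negative controls on 1 array, so that it did not pass the filter, and it was well above background on 0 of 36 arrays. Its signal ran from 1.95 to 3.14 over all rats. Over 20 other probes with a CT or AG repeat, the median correlation with the first probe was 0.36 and the median log2 FC was -0.25, -0.22 and -0.11. What the repeat adds to the signal of the Cd28 probe was not tested. For Ctla4, 1 array of 36 was well above background, that of DQ-12 rat 1 at D30 (4.37, beside 2.07 to 2.19 in the other DQ-12 rats of that day). No FC is given for Ctla4, and its adjusted p were 0.783, 0.641 and 0.161.

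Pdcd1, which encodes PD-1, was the only one of the 10 genes to fall, at D1, and its probes disagreed. At D1 the probe at chr9:93173522-93173581 ran from 5.6 to 6.41 (median 6) in vehicle rats and from 3.95 to 6.32 (median 4.92) in DQ-12 rats. The groups overlapped, with 4 of the 6 DQ-12 rats below every vehicle rat. The log2 FC was -1 at D1 (SE 0.31, adjusted p = 0.0226), -0.44 at D30 (adjusted p = 0.556) and 0.54 at D180 (adjusted p = 0.265). The call at D1 was lost in 6 of the 12 fits that left out 1 rat, in 3 of them only because the FC dropped under 2. Another left out DQ-12 rat 5 (log2 FC -0.79, adjusted p = 0.0738), which is among the 3 rats with raised muscle genes. It was also lost when slide or scan date entered as a block, with log2 FCs of -0.77 and -0.82. The second probe, at chr9:93174940-93174999, was well above background on 2 DQ-12 and 0 vehicle arrays at D1, where it was at least 1.06-fold higher, the opposite direction, without passing the test (adjusted p over all kept probes 0.194). The median of both probes gave 0.01. The second probe is shown whole, as the sequence that goes against the first:
Pdcd1, first 30 bases of the brightest probe: tccaagacatgaggatggacactgctcttg
Pdcd1, second probe: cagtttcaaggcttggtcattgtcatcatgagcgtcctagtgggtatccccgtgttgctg

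Il2ra, the inducible chain of the interleukin-2 receptor, rose at D30 and was a DEG at D180. At D30 its log2 signal ran from 6.34 to 7.22 (median 6.8) in vehicle rats, and DQ-12 rats ran from 7.34 to 8.2 (median 7.73). At D180 it ran from 6.01 to 6.73 (median 6.5) and from 7.49 to 8.03 (median 7.85). The groups did not overlap at either time, while at D1 they did. The log2 FC was 0.12 at D1 (SE 0.19, adjusted p = 0.728), 0.91 at D30 (SE 0.19, FC 1.87, adjusted p = 0.00273) and 1.36 at D180 (SE 0.19, FC 2.57, adjusted p = 2.02e-06). Within scan dates, the difference was 0.38 and 1.29 at D30 and 1.35 and 1.25 at D180. With slide as a block, the D180 difference was 1.66 with an adjusted p of 0.111. The second, dimmer probe did not pass at any time (adjusted p over all kept probes 0.475, 0.882 and 0.127). Its log2 FC was -0.41 at D1 and 0.79 at D180 (SE 0.33 each), with 3 vehicle and 5 DQ-12 arrays well above background at D180. At D30 it was well above background on 0 vehicle arrays and 1 DQ-12 array, with no bound above 1. With the median of both probes, Il2ra no longer passed at D30 (0.57, adjusted p = 0.139) and still did at D180 (1.08, adjusted p = 0.000321).

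Foxp3, the factor of regulatory T cells, was a DEG at D180, and the size of its change rested on a few rats. At D180 its log2 signal ran from 3.19 to 5.56 (median 4.91) in vehicle rats, 3 of them well above background, and from 5.58 to 9.75 (median 5.86) in DQ-12 rats, 5 of them well above background. No DQ-12 rat overlapped the vehicle rats, the lowest, rat 5, at 5.58 beside a highest vehicle rat at 5.56. Rat 5 was the DQ-12 rat not well above background, so that this gap rests on a value near background. DQ-12 rat 1 stood far above the other 5, whose highest was 6.07. The log2 FC was 1.84 (SE 0.45, adjusted p = 0.00353). Without that rat it was 1.19 (adjusted p = 0.00326), and with the D180 arrays fitted alone the adjusted p was 0.127. At D1 and D30 the log2 FC was 0.13 and 0.11 (SE 0.45 each). Vehicle rats at D1 and D30 ran from 4.58 to 5.81.

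The second Foxp3 probe, at chrX:26950109-26950168, was well above background on 1 of 12 arrays at D180 and had no bound above 1. In the 2 scan dates with both groups at D180, the difference of the first probe was 1.75 and 2.39. On the single slide that held both groups at D180, which carried 1 array of each group, it was 4.67. The first probe, at chrX:26952215-26952274, and the start of the second were:
Foxp3, brightest probe: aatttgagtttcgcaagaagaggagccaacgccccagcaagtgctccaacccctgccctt
Foxp3, first 30 bases of the second probe: aactatcagtccacatcttgggcaaagtgg

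Batf rose at all 3 time points, and at each of them every DQ-12 rat lay above every vehicle rat. Its log2 signal at D1 ran from 7.77 to 8.56 (median 8.25) in vehicle rats, while DQ-12 rats ran from 8.63 to 9.09 (median 8.96). By D30 vehicle rats ran from 8.08 to 8.83 (median 8.47) and DQ-12 rats from 9.22 to 10.25 (median 9.55). At D180 vehicle rats lay between 7.85 and 8.66 (median 8.45), and DQ-12 rats lay between 9.31 and 10.59 (median 9.8). The log2 FC was 0.69 at D1 (SE 0.19, FC 1.61, adjusted p = 0.013), 1.2 at D30 (SE 0.19, FC 2.3, adjusted p = 0.000153) and 1.54 at D180 (SE 0.19, FC 2.91, adjusted p = 5.06e-07). Within scan dates it was 0.34 at D1, 1.08 and 1.21 at D30, and 1.74 and 1.76 at D180. The D1 rise no longer passed with scan date (adjusted p = 0.793) or slide (adjusted p = 0.586) as a block. Batf is among the genes that the study itself selected on these rats, so that its rise is not independent evidence of a direction.

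Of 18 genes of factors that pair with BATF or belong to the AP-1 and NFAT families, 2 were DEGs at D1, 0 at D30 and 2 at D180 (limma; 9, 5 and 9 with an unadjusted p under 0.05), with medians of 0.02, 0.08 and 0.26. Among all genes, 3.12, 1.06 and 3.67% were DEGs. Irf4, the partner of BATF in activated lymphocytes and also a gene of plasma cells, had log2 FCs of 0.47, 0.75 and 1.46 (adjusted p 0.096, 0.0209 and 1.16e-06). Junb, an AP-1 subunit, rose at D1 (log2 FC 1.04, FC 2.06, adjusted p = 0.000197) and had values of 0.07 and 0.23 later. Fosl1, another AP-1 subunit, was well above background on 0 vehicle arrays at D1 and D180 and was at least 1.26-fold and at least 2.63-fold higher in DQ-12 rats (adjusted p = 0.00385 and 2.4e-05).

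Icos, Il2ra and Batf at D30, and these with Foxp3 at D180, rose more than Cd3e. For each rat the log2 signal of Cd3e was subtracted, so that the values compare changes of other genes with that of the CD3 chain. At D1 0 of 9 genes passed (limma, 2 with an unadjusted p under 0.05, and 2.07% of all genes passed). At D30 3 of 9 passed (0.531% of all genes): Batf by 1.2, Icos by 1.05 and Il2ra by 0.9 more than Cd3e, with adjusted p of 0.00949, 0.0159 and 0.0441. At D180 4 of 9 passed (5.98% of all genes): Foxp3 by 1.62, Batf by 1.32, Icos by 1.16 and Il2ra by 1.14, with adjusted p of 0.0338, 0.0011, 0.00178 and 0.00133. The D30 value of Il2ra lost the call in 10 of 12 fits that left out 1 rat, where it ran from 0.78 to 1, that of Icos at D30 in 3 of 12, and that of Batf at D30 in 1 of 12, without DQ-12 rat 1 (1.05, adjusted p = 0.0591). That of Foxp3 at D180 lost it in 4 of 12, where it was 0.96 without DQ-12 rat 1. With scan date as a block, 0 of the 3 genes passed at D30 (adjusted p 0.0746 for Batf, 0.255 for Icos and 0.127 for Il2ra), and at D180 Foxp3 did not (0.0605), while Batf, Icos and Il2ra did.

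The effect of DQ-12 was more positive at D180 than at D1 for 3 genes, each read from its brightest probe. The difference of the log2 FC between D180 and D1 was 1.24 for Il2ra (SE 0.26, adjusted p = 0.00447), 0.92 for Icos (SE 0.21, adjusted p = 0.00753) and 1.54 for Pdcd1 (SE 0.44, adjusted p = 0.0337), whereas 4.65% of all genes passed this test. For Batf it was 0.85 (SE 0.28, adjusted p = 0.0686). That of Pdcd1 passed in 15 of the 24 fits without 1 rat, where it ran from 1.33 to 1.8. The second Pdcd1 probe was well above background on few arrays. It was at least 1.06-fold higher at D1, with 0 vehicle arrays well above background. At D180 its log2 FC was -0.77, with 1 array of each group well above background, and neither value passed the test. With the median over the probes of a gene, only Il2ra passed (limma, 1.22, adjusted p = 0.0151). Icos had 1.08 (0.0743) and Pdcd1 0.03 (0.982). Pdcd1 did not pass with slide or scan date as a random block (adjusted p 0.101 and 0.104). With slide as a fixed block, the differences were 1.99 (Il2ra), 0.81 (Icos) and 1.59 (Pdcd1). These are given as sizes only: D180 then rested on 1 array of each group, so that this fit cannot show whether the differences hold. Between D30 and D1, and between D180 and D30, 0 of 10 genes passed (limma, 2 with an unadjusted p under 0.05 in each, and 2.21 and 0.249% of all genes passed). With scan date as a block, where D1 is compared through 1 vehicle array, 0 of the differences passed, at 1.51 for Il2ra (adjusted p = 0.107), 0.72 for Icos (0.398) and 1.58 for Pdcd1 (0.405).

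In vehicle rats, 1 of the 10 genes differed between time points. Pdcd1 was lower at D180 than at D1 (log2 difference -0.99, SE 0.31, adjusted p = 0.0344; 10.7% of all genes passed), and this call was lost in 7 of the 12 fits without 1 rat. A count of 1 in 10 is near the 10.7% of all genes, and age and array batch go with time in vehicle rats. On the brightest Pdcd1 probe the mean was 6.01 in vehicle and 5.01 in DQ-12 rats at D1, and 5.02 and 5.56 at D180. On the second probe it was 2.89 and 3.92 at D1, and 3.65 and 2.88 at D180. That probe was well above background on at most 2 arrays of each of these groups. What the vehicle change adds to the Pdcd1 difference between D180 and D1 was not tested. For the remaining 9 genes the vehicle rats did not pass the test between any pair of time points (limma; of the 10 genes, 2 had an unadjusted p under 0.05 between D1 and D30 and 1 between D30 and D180, and 6.59 and 11.7% of all genes passed).

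Some other costimulatory and inhibitory receptors rose at the later time points, while most of those tested did not pass. Of 19 tested, 0 were higher and 1 lower DEG at D1, 2 were higher at D30 and 6 were higher at D180, where 3.12, 1.06 and 3.67% of all genes were DEGs. The median log2 FC was 0.03, 0.07 and 0.29. Tnfrsf9, which encodes the costimulator 4-1BB, had a log2 FC of 1.7 at D30 (SE 0.3, adjusted p = 0.000387) and 2.04 at D180 (SE 0.3, adjusted p = 5.2e-06), with 4 vehicle arrays well above background at D180. Havcr2, which encodes the inhibitory receptor TIM-3 and is also made by myeloid cells, rose by 1.5 and 1.7 (SE 0.21 each). Tnfrsf4, which encodes the costimulator OX40, rose by 0.97 at D30 (FC 1.95) and 1.54 at D180 (SE 0.17 each, adjusted p = 0.000371 and 3.39e-08). Lag3, an inhibitory receptor that binds class II molecules, rose at D180 by 1.55 (SE 0.41, adjusted p = 0.0065), and Cd200r1, an inhibitory receptor mostly of myeloid cells, by 1.42 (SE 0.31). Tnfrsf8, which encodes CD30, fell at D1 (log2 FC -1.12, SE 0.2, adjusted p = 0.000197).

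Tnfsf9, Cd274 and Cd86, which encode ligands that other cells present to such receptors, were higher at D180. Of 12 ligand genes tested, 1 was a DEG at D1, 1 at D30 and 5 at D180, all higher and 2 of the last near background, with medians of 0.14, 0.43 and 0.54. Beside these counts, 3.12, 1.06 and 3.67% of all genes were DEGs. Tnfsf9, the ligand of 4-1BB, had log2 FCs of 0.93, 1.25 and 2.43 (SE 0.21 each, adjusted p 0.00208, 0.000252 and 3.54e-10). Cd274, which encodes the PD-1 ligand PD-L1, had 0.2, 0.69 and 1.32 (SE 0.13 each, adjusted p 0.296, 0.000738 and 2.97e-09). Cd86, a ligand of CD28 and CTLA4, rose by 1.35 at D1 and 1.21 at D180 (SE 0.35 each, adjusted p = 0.00672 and 0.0127) and had 1.13 at D30 (adjusted p = 0.0598).

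The remaining ligands gave less. Icoslg, the ligand of ICOS, had log2 FCs of 0.17, 0.39 and 0.32 and passed at no time (adjusted p 0.511, 0.178 and 0.169). Cd80, the other ligand of CD28, and Pdcd1lg2, the second PD-1 ligand, were well above background on at most 4 arrays of any group and passed at no time, and Il2 was well above background on no array. Cd70 and Tnfsf4, the ligand of OX40, passed at D180 but are given no FC, since Cd70 was well above background on 3 DQ-12 arrays of that day and 0 vehicle arrays, with no bound above 1, and Tnfsf4 on none.

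**Figure D4:**
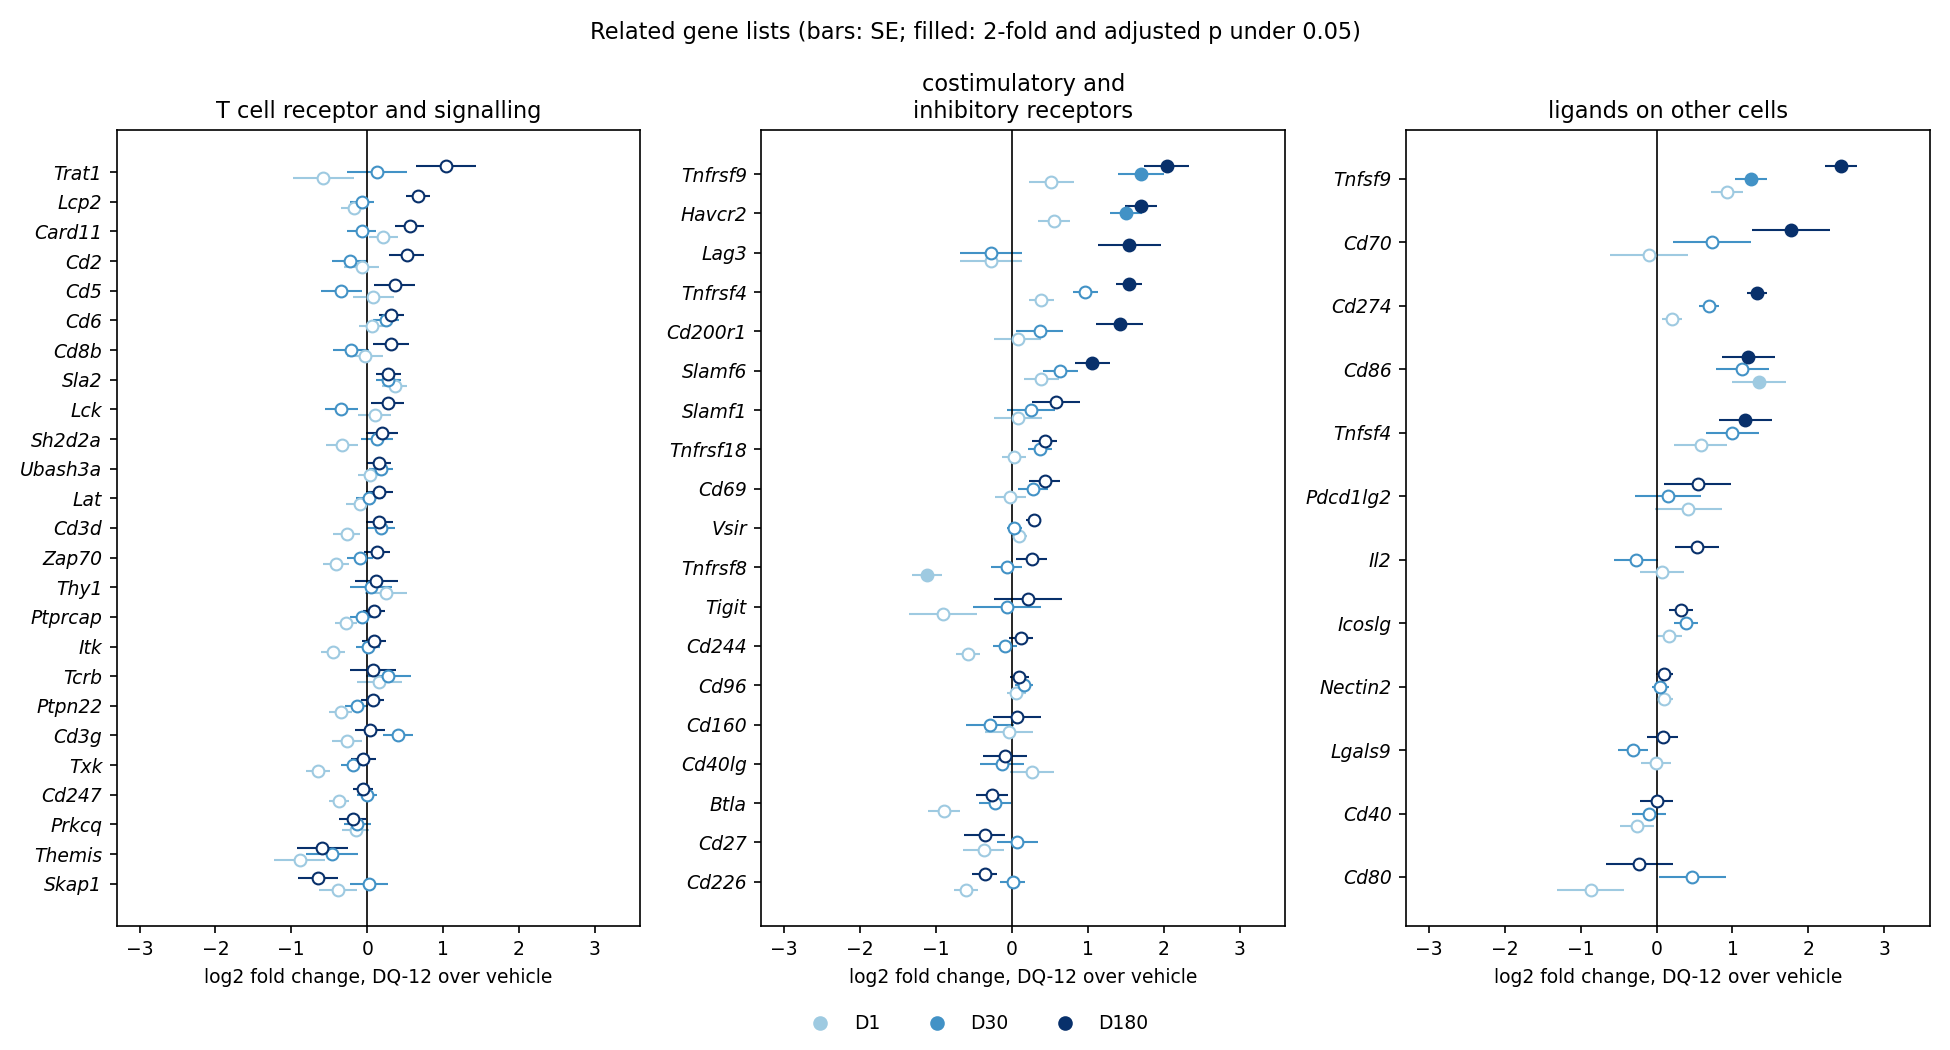
Log2 FC of DQ-12 over vehicle rats at D1, D30 and D180 for 25 genes of the T cell receptor and its signalling, 19 costimulatory and inhibitory receptors and 12 ligands; bars are SEs and filled points are DEGs. The first panel holds 0 filled points, while the receptors and ligands hold 6 and 5 at D180.

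Few genes of T cell subsets and functions were DEGs. The counts stand beside 3.12, 1.06 and 3.67% of all genes that were DEGs at D1, D30 and D180. Of 19 lineage transcription factors 0 were DEGs at any time point (limma; 3, 3 and 6 with an unadjusted p under 0.05), and of 16 homing and memory receptors also 0 (4, 3 and 9). On the adjusted p alone, which 17.1% of all genes passed at D180, 1 lineage factor was higher at D180 and 4 were lower. Chosen after their values were seen, these were Runx3 (log2 FC 0.42), and Lef1 (-0.82), Klf2 (-0.68), Tcf7 (-0.55) and Satb1 (-0.5), of which Lef1, Tcf7 and Klf2 are known from naive T cells. The homing receptors had a median log2 FC of 0.14, 0.11 and 0.46. On the adjusted p alone, 6 of them rose and 1 fell at D180, where 17.1% of all genes passed. Of 15 regulatory T cell genes, 0, 0 and 2 were DEGs (limma; 4, 6 and 6 with an unadjusted p under 0.05). These 2, both at D180, were Capg (log2 FC 1.7, SE 0.14), an actin-capping protein that macrophages also make and that the study itself selected on these rats, and Ebi3 (1.08, SE 0.15), a subunit of interleukin-27 and interleukin-35 that myeloid cells also make. Of 19 cytokines and interleukin-2 receptor genes, 0 were DEGs at D1 (limma; 1 with an unadjusted p under 0.05), 2 were higher at D30, and 2 were higher and 1 lower at D180. Tnf, which macrophages and T cells make, rose by 1.34 at D30 and 1.31 at D180 (SE 0.19 each). The other DEG at D30, Il21, a cytokine of follicular helper T cells, is given no FC, since it was well above background on 1 DQ-12 and 0 vehicle arrays. Il17a, the cytokine of Th17 cells, was well above background on 0 vehicle arrays at D180 and was at least 1.29-fold higher (adjusted p = 0.000719), and Il5, a type 2 cytokine, fell by 1.73 on the log2 scale at D180 (SE 0.54, adjusted p = 0.0211).

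Markers of other cell types moved at the same time points, and their part in the rises of Batf, Icos, Il2ra and Foxp3 was not tested. For comparison, 3.12, 1.06 and 3.67% of all genes were DEGs at D1, D30 and D180. Of 8 plasma cell genes, 1, 2 and 6 were higher DEGs at D1, D30 and D180. The mean log2 level of the 8 ran from 8.02 to 9.04 in vehicle and from 8.98 to 9.91 in DQ-12 rats at D30, and from 8.29 to 9.12 and from 9.48 to 10.42 at D180. Jchain, the joining chain of secreted antibodies, had log2 FCs of -0.55, 1.36 and 2.27, and Derl3 was the DEG of D1 (1.52). Igha, Tnfrsf17 and Mzb1 had 2.33, 2.13 and 2.05 at D180. Of 12 macrophage and monocyte genes, 0, 3 and 5 were higher DEGs (limma at D1, 7 with an unadjusted p under 0.05), and their mean level ran from 9.44 to 9.92 in vehicle and from 10.16 to 10.45 in DQ-12 rats at D180. These 5 were Marco (log2 FC 2.62), Itgam (2.19), Siglec1 (1.96), Cd68 (1.55) and Cd14 (1.33), of which Marco, Siglec1 and Cd68 were the DEGs of D30. The list was mixed at D180, with a median of 0.09, and 2 of its genes fell on the adjusted p, Cd163 (-0.89) and Mertk (-0.41), named after their values were seen. Of 9 neutrophil genes, 1, 2 and 5 were higher DEGs, with mean levels of 6.81 to 7.33 and 7.76 to 8.38 at D180. These 5 were S100a9 (log2 FC 2.57), Mmp9 (2), S100a8 (1.56), Cxcr2 (1.55) and Csf3r (1.11), with S100a9 and S100a8 at D30 and Csf3r at D1. Within this list Elane, an enzyme of immature neutrophils named as a defining marker, was well above background on 0 arrays.

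The lists of T cell, B cell and NK cell markers held 0 DEGs, where 3.12, 1.06 and 3.67% of all genes were DEGs at D1, D30 and D180. In lists this short, 0 is near those shares. The mean level of the 16 T cell markers ran from 8.24 to 8.83 in vehicle and from 8.44 to 9.22 in DQ-12 rats at D180, so that the groups overlapped, as they did at D1 and D30. Of 10 B cell genes and 10 NK cell genes 0 were DEGs at any time point (limma; 3, 1 and 2, and 1, 1 and 2, with an unadjusted p under 0.05). Of 9 dendritic cell genes 0, 1 and 2 were DEGs (limma; 3, 3 and 8 with an unadjusted p under 0.05), namely Clec9a, with log2 FCs of 1.4 and 1.31 at D30 and D180, and Cd83 at D180 (1.07). At D180, 6 of the 9 rose and 1 fell on the adjusted p, beside 17.1% of all genes, and the median was 0.58. Of 9 genes of innate lymphoid and gamma delta T cells, 1, 0 and 0 were DEGs (limma; 4, 2 and 4 with an unadjusted p under 0.05), the one being Areg (log2 FC 1.64).

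Mast cell genes also moved at D180. Of 8 tested, 0, 0 and 1 were DEGs at D1, D30 and D180, where 3.12, 1.06 and 3.67% of all genes were. An unadjusted p under 0.05 (limma) was reached by 1, 0 and 7 of the 8. The DEG was Tpsab1, a tryptase (log2 FC 1.57). On the adjusted p, 4 rose and 1, Kit (-0.69), fell at D180, where 17.1% of all genes passed. The median there was 0.77, and the mean level ran from 6.96 to 7.91 in vehicle and from 7.36 to 8.64 in DQ-12 rats. Their part in the rises of the T cell genes was not tested either. Of 7 thymus and 9 lymphoid stroma genes, 1 each was a DEG at D180, Dntt (1.78) and Ccl19 (1.21), and of 10 muscle genes 1 was at D1, Myh1 (at least 3.66-fold higher). The DQ-12 group at D1 holds 1 of the rats with raised muscle genes, rat 5. Its mean level of these genes was 10.75, beside group medians of 8.56 in DQ-12 and 8.24 in vehicle rats. Its part in the Myh1 value was not tested.

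The 10 genes also varied from rat to rat within the groups. With the group means taken out, the genes most like Cd3e over the 36 arrays were Il27ra (r = 0.79), Sit1 (0.78) and Cd79b (0.75), and the gene most like Cd8a was Zap70 (0.82). Those most like Icos were Snx20 (0.75), Ssr4 (0.71) and P3h4 (0.71), those most like Batf were Ndufa13 (0.79), Pomt1 (0.79) and Parm1 (0.78), and that most like Il2ra was Ctse (0.66). Among the 10 genes themselves, the highest correlations were those of Icos with Batf (0.61), Cd3e with Cd8a (0.53) and Cd3e with Il2ra (0.52). These correlations share arrays and normalization and are given as a description.

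Batf, Icos and Il2ra moved together at D30 and D180, and the 250 bases before their starts are therefore shown, from RefSeq on build GRCr8. Of the 10 genes, 9 had an entry in that table. Both strands were searched for TGANTCA, a site of AP-1 factors, TTCNNNGAA, a site of STAT factors, and GGAAA, the core of NFAT sites, which also matches other factors. These were present in 6.34, 7.67 and 56.9% of the 33469 sequences of this length. TGANTCA was in 0 of the 9, TTCNNNGAA in that of Batf, and GGAAA in 6 of the 9, with 4 copies in that of Batf and 0 in those of Icos and Il2ra. Matches are in capitals, at chr6:111084467-111084716 for Batf (plus strand), chr9:69877549-69877798 for Icos (plus strand) and chr17:71808476-71808725 for Il2ra (minus strand):
Batf: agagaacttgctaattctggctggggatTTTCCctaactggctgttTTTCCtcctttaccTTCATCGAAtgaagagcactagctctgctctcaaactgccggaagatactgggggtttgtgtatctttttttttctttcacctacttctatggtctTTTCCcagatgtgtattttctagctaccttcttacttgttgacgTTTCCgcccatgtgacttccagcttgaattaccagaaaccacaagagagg
Icos: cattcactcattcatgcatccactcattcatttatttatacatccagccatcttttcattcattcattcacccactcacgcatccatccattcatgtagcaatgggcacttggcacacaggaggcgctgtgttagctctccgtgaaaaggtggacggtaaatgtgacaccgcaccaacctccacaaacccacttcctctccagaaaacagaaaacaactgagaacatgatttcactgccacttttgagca
Il2ra: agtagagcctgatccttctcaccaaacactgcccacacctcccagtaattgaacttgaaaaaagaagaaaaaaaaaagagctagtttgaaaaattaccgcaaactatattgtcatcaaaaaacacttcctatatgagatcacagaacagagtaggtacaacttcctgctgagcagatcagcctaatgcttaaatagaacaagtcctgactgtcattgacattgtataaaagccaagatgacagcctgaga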

How the data were processed

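RNA of 36 accessory lobes was hybridized to single-color Agilent arrays, 1 per rat. The authors deposited, per the file headers, Feature Extraction 12.0.1.1 output, from which the background-corrected intensity of each spot was used here. The authors also deposited log2 values. These equal the log2 intensity minus the 75th percentile of each array, centered per probe (r = 0.999973), and served as an alternative. Control and outlier spots (232 to 596 per array) were left out, and spots of a probe were averaged on the log2 scale. The 41767 probes that exceeded, on 6 or more arrays, the 95th percentile of 308 negative control spots were quantile normalized, and each of 23721 genes was read from its brightest probe on average. Of 25597 gene names, 7830 had several probes.

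The means of the 6 groups were fitted to all 36 arrays in limma 3.58.1 (R 4.3.3), with 2-sided moderated tests and Benjamini–Hochberg adjustment over all genes within each comparison. Single values also had an exact permutation test over 462 splits. Where a group had 0 arrays well above background, the FC is a bound: each of its arrays was given its own signal or the lowest signal well above background on it, whichever was higher, before the means were compared. The methods of the study state that batch correction was done but not for which variable, so that none entered the model here, and slide and scan date were blocks in alternatives, along with another intensity column, background correction, scaling, filter, probe summary and threshold, and each rat left out. The model was tested on simulated data with changes of known size. The 10 genes and the gene lists were chosen with earlier results of these data known. All 10 genes are named with every probe. From the lists, genes that were DEGs were named, at most 5 by size per list and time point, with the CD3 chains, Cd8b and the ligands Cd80, Cd86, Icoslg, Cd274, Pdcd1lg2 and Il2 in any case, and a few others where the text says so. The list genes Trac, Trbc1, Fyb, Pvr and Ighm were not among the gene names used here. Figures were drawn with matplotlib 3.10.9.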

Additional observations from a re-analysis of the deposited data

Results flagged for a closer look

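In 6 of the 60 combinations of a gene and a group, 1 rat stood apart from the other 5 by Dixon's test, which chance does in about 1 of 20 groups. Foxp3 was 9.75 in DQ-12 rat 1 at D180, beside 6.07 in the next rat. Ctla4 was 4.37 in DQ-12 rat 1 at D30 (next rat 2.19), 2.95 in DQ-12 rat 4 at D1 (2.27) and 2.56 in vehicle rat 3 at D30 (2.17), and the last 2 of these arrays were not well above background. Cd8a was lowest, at 8.15, in vehicle rat 3 at D30 (next 8.99), and Il2ra, at 5.7, in vehicle rat 2 at D1 (next 6.44).

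The effect of DQ-12 differed between D180 and D1 by an interaction test for Il2ra (1.24), Icos (0.92) and Pdcd1 (1.54), all more positive at D180. The second Pdcd1 probe was at least 1.06-fold higher at D1 and had a log2 FC of -0.77 at D180, neither of which passed the test. The D180 value is over 5 DQ-12 rats since 1 value was missing, that of the only DQ-12 array well above background.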

How the results depend on the processing

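Icos, Il2ra, Batf and Foxp3 stayed DEGs at D180 in each of the 12 fits that left out 1 rat (4 of 10 genes, lowest and highest 4), whereas the count ran from 0 to 1 at D1 and from 1 to 2 at D30. The number of differences between time points that passed ran from 2 to 4, that of vehicle differences from 0 to 1 and that of genes passing relative to Cd3e, summed over the 3 time points, from 4 to 8. At D1 the count of 1 became 0 with the median intensity, normexp, the median over probes, each time point alone, slide or scan date as a fixed or a random block, or without the 3 rats with raised muscle genes (chosen after seeing the data). It became 2 at a 1.5-fold threshold and 3 with none. At D30 it became 1 with the median intensity, normexp, the median over probes or scan date as a fixed or random block, and at D180 it became 2 with normexp (without Il2ra and Foxp3) and 3 with slide as a fixed block (without Il2ra), each time point alone or the median over probes (without Foxp3). The count of differences, 3, became 5 with normexp, 1 with the median over probes and 0 with scan date fixed, and that relative to Cd3e, 7, became 3 with scan date fixed. With slide as a fixed block at D30, Icos lost the call (log2 FC 0.98) and Il2ra gained it (log2 FC 1.01), a swap that the count does not show. Pdcd1 at D1 reversed to 0.01 with the median over probes. The cause was not tested. Over all genes, the DEGs at D1, D30 and D180 numbered 739, 251 and 871, and 213, 102 and 327 with normexp or 270, 126 and 430 with the median intensity. With 75th percentile scaling the median log2 FC of all genes at D1 was -0.1.

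By their labels, rats of different groups share only a number. The residuals of same-day pairs of equal number correlated at -0.134 to 0.225, with 6 of 18 pairs above 0.1. With the replicate number as a block, the counts were 1, 2 and 4 at D1, D30 and D180, 2 for the differences and 7 relative to Cd3e, and Pdcd1 between D180 and D1 had an adjusted p of 0.0522. For 10 of 36 arrays, the mean correlation with arrays of other groups was highest for their own number. Signal over background limits Ctla4, Foxp3 and the second probes of Foxp3, Il2ra and Pdcd1.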
